A study of Mus musculus with 8 samples.

Results

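The BAF and PBAF remodellers are a family of chromatin-remodelling machines, and 10 of their subunit genes were followed here by their messenger RNA: Smarca4, Smarca2, Arid1a, Arid1b, Arid2, Pbrm1, Smarcb1, Smarcc1, Smarcc2 and Smarcd1. They were chosen by name, as the genes of 34976 in the deposited table whose symbol equals one of these, and all 10 were found, with 75 transcript rows between them. The values are FPKM, that is fragments scaled to the transcript's length and to the total of the library, and the rows of a gene were summed unless a single row is named. The embryos were of the outbred CF-1 mouse stock, were taken at the late 2-cell stage and had been injected at the early 1-cell stage either with a scrambled control morpholino or with a morpholino directed at the Med13 transcription start site. Both groups were thus injected embryos of the same stock, the study's control being the scrambled morpholino. Each of the 4 libraries of a group came from a separate collection of 40 embryos, pooled and amplified together. By the series title, the comparison asks what MED13, a subunit of the Mediator complex that links transcription factors to RNA polymerase II, does for activation of the zygotic genome.

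BAF and PBAF complexes use ATP to slide or evict nucleosomes, which opens promoters and enhancers to transcription factors. Each complex holds 1 ATPase, SMARCA4 (also called BRG1) or SMARCA2 (BRM), on a core of SMARCB1, SMARCC and SMARCD subunits. An ARID1A or ARID1B subunit marks the complex as BAF, while ARID2 and PBRM1 mark it as PBAF. In the mouse, SMARCA4 stored in the egg is needed for normal activation of the zygotic genome and for development past the 2-cell stage, and complexes of mouse embryonic stem cells are built on SMARCA4 and SMARCC1 rather than SMARCA2 and SMARCC2.

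The promoters of the paired ATPase genes are shown because the ratio of their RNAs differed between the groups, as described further on. Both stretches run from 250 to 111 bases before the RefSeq start of the gene (GRCm38.p6, plus strand), overlap 0 GENCODE exons and are written 5′ to 3′. Capitals mark the GC box, GGGCGG on either strand. Smarca4 lies at chr9:21615919-21616058 and Smarca2 at chr19:26604910-26605049. The Smarca2 stretch ends directly before the GENCODE start of the gene (26605050), while that of Smarca4 (21616169) lies farther downstream of its stretch. By GENCODE starts, the stretches thus stand at unlike positions.
Smarca4: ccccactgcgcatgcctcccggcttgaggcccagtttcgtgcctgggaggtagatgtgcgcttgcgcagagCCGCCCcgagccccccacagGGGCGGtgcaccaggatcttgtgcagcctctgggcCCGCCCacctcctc
Smarca2: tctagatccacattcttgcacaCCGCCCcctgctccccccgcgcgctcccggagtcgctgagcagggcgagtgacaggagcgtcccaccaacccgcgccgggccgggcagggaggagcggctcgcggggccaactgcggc
The Smarca4 stretch held 3 GC boxes and 9 CpG dinucleotides, and the Smarca2 stretch held 1 GC box and 16 CpG. A GC box occurred in 15.3% of the same stretch of all 32851 RefSeq promoters, and the median promoter held 3 CpG there. Neither stretch held CCAAT (18.7% of all promoters) or TATAAA (6.9%) on either strand. Bases nearer to the RefSeq start than 111 were not searched, so both motifs may still occur there. These are matches of letters, which do not show that a factor binds.

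The libraries held 31378977 to 48050262 fragments. Scrambled replicate 2 stood apart, since the top 10 genes took 20.8% of its FPKM, while the remaining controls ranged from 13.0% to 13.8% and the Med13 morpholino group from 16.4% to 17.5%. All 12 markers listed for the 2-cell embryo had a mean FPKM of at least 1, led by Dppa3 (mean 547) ahead of Zfp352 (80.9). Of these, 7 were called higher and 2 lower after the Med13 morpholino. Their summed level, which Dppa3 dominated, was 714 to 879 in the scrambled and 835 to 998 in the Med13 morpholino group. Of 8 cumulus and granulosa markers only Amhr2 reached a mean of 1 (mean 13.1), while Cyp19a1, Foxl2, Has2, Ptx3, Inha and Fshr stayed below 1 in all 8 libraries. None of the 4 sperm markers in the table reached a mean of 1, and Itgam (1.60) and Cd68 (1.03) did among 6 blood and immune markers, as did Epcam (26.5) and Ovgp1 (2.83) among 4 oviduct markers and Gata3 (1.71) among 4 markers of later stages. The summed level of the cumulus list was 10.9 to 16.0 in the scrambled and 12.4 to 16.7 in the Med13 morpholino libraries. That of the later-stage list was 2.07 to 7.30 and 1.10 to 1.87, without overlap, and 1 oviduct marker was called lower. The part of these marker differences in the results was not tested. The RNA of Med13 itself was 41.3 ± 4.31 FPKM in the scrambled and 42.2 ± 2.14 FPKM in the Med13 morpholino group (SD, n = 4 each; limma adjusted p = 0.892), so the RNA level gives no check of the knockdown, which for a morpholino can act on translation alone.

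Of the 10 members, 9 had a mean FPKM of at least 1 and were tested, and Smarcd1 was below it. Among those tested, Arid1b was called higher after the Med13 morpholino and 0 were called lower, at an adjusted p below 0.05 in limma's moderated test. Over all 11755 genes tested, 9.29% were called higher and 7.81% lower, 17.1% in all. One call among 9 members is thus a share close to that of all genes. The median log2 difference, Med13 morpholino minus scrambled, was -0.03 over the members tested and -0.06 over all genes tested. In bulk embryo pools, fewer cells with an RNA and less of it per cell cannot be told apart.

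**Figure D1:**
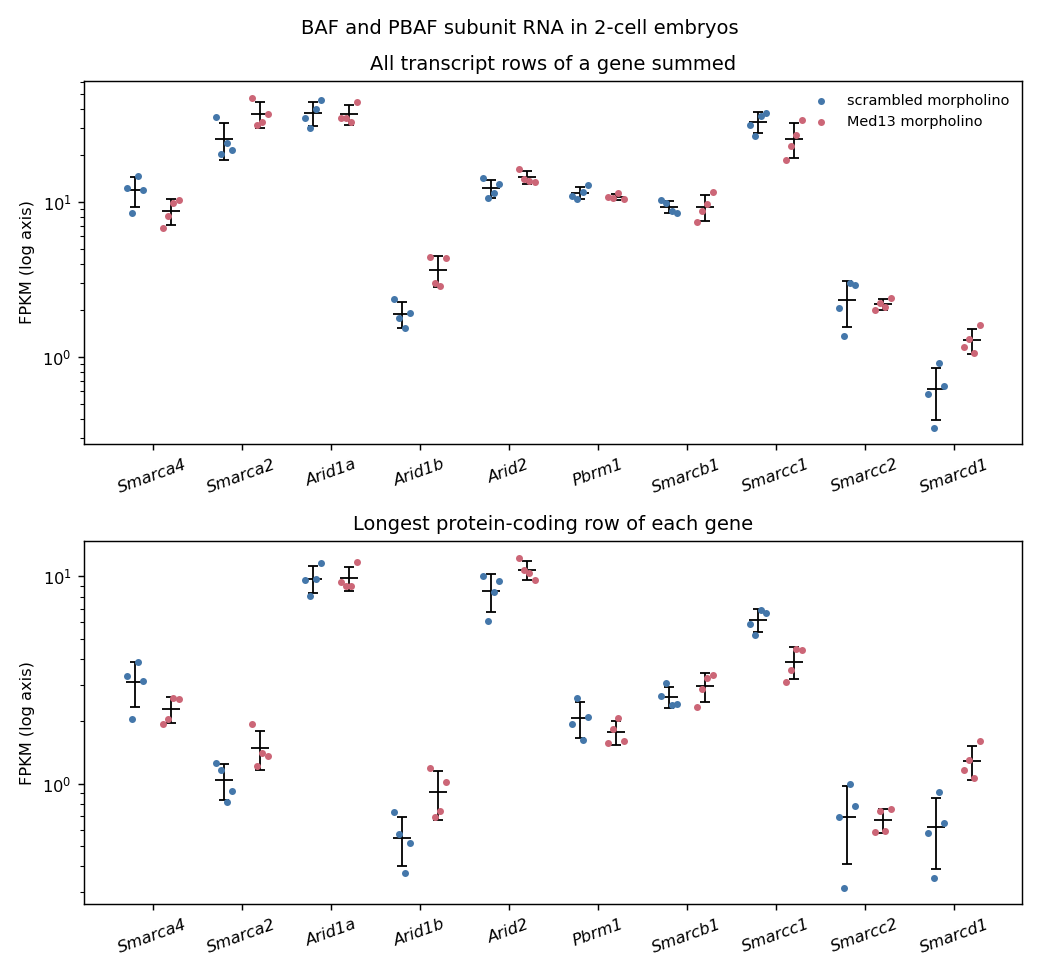
FPKM of the 10 subunit genes on a log axis, with each point 1 library (blue scrambled, red Med13 morpholino), bars giving mean ± SD, the sum over all transcript rows of a gene above and the longest protein-coding row below. The groups stand apart for Arid1b and Smarcd1 in the sums and for Smarcc1 and Smarcd1 in the longest rows.

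Levels between genes were compared on the longest protein-coding row only, because genes have 1 to 19 rows. A sum over rows repeats a fragment if each row that it fits counted it. Whether fragments were counted so, or divided among the rows, is not stated. If they were divided, the longest row of a gene with many similar rows holds only part of them. The longest row held 100% of the sum for Smarcd1, 57.4% to 76.7% for Arid2 and 24.3% to 27.7% for Arid1a. The order below is thus one of rows, and may differ from that of the genes. On this per-length scale, the highest longest rows in the scrambled embryos were those of Arid1a (9.73 ± 1.45 FPKM, SD, n = 4) and Arid2 (8.51 ± 1.75). These genes encode the large subunits that define BAF and PBAF. The scaffold gene Smarcc1 followed at 6.18 ± 0.76. Next came the ATPase gene Smarca4 (3.10 ± 0.76), the core subunit gene Smarcb1 (2.64 ± 0.31) and Pbrm1 (2.07 ± 0.40), whose ranges overlapped from each to the next. The ATPase gene Smarca2 was at 1.04 ± 0.20. The lowest were Smarcc2 (0.70 ± 0.28), Smarcd1 (0.62 ± 0.23) and Arid1b (0.55 ± 0.15), and these overlapped one another. The order showed a clear gap at only 2 places, between Smarcc1 and Smarca4 and between Pbrm1 and Smarca2, where the libraries' ranges did not meet. By the longest row, Smarca4 stood above its paralog Smarca2, Arid1a above Arid1b and Smarcc1 above Smarcc2 in all 4 control libraries. The sums over rows kept the Arid1 and Smarcc orders but reversed that of the ATPase genes (scrambled means, Smarca2 25.5 and Smarca4 11.9 FPKM). The longest row held 3.39% to 5.69% of the sum for Smarca2 and 24.2% to 28.7% for Smarca4. Which ATPase RNA was more abundant thus depends on the measure.

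The ATPase genes came first in the comparison of the groups. Smarca4 (ENSMUSG00000032187, GRCm38 chromosome 9, 21616169 to 21704230, plus strand) had summed FPKM of 12.4, 8.53, 14.8 and 12.0 in scrambled replicates 1 to 4. After the Med13 morpholino, replicates 1 to 4 had 6.77, 8.08, 9.84 and 10.3. The Med13 morpholino libraries lay mostly below the scrambled ones, but scrambled replicate 2 fell among them, so the groups overlapped. The log2 difference was -0.40 ± 0.19 (SE; limma adjusted p = 0.166), with a 95% interval from -0.81 to 0.01, and did not pass the test. Without scrambled replicate 2 it was -0.54 and did pass (limma adjusted p = 0.0465). In every other fit that left out 1 library it was -0.48 to -0.30 and did not pass (limma adjusted p from 0.119 to 0.377). All 4 Smarca4 rows, each protein-coding, had negative differences, from -0.36 to -0.26, with no row called.

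Smarca2 (ENSMUSG00000024921, GRCm38 chromosome 19, 26605050 to 26778322, plus strand) had summed FPKM of 35.5, 20.5, 24.2 and 21.8 in scrambled replicates 1 to 4. In Med13 morpholino replicates 1 to 4 the values were 47.3, 31.6, 33.0 and 36.9. Scrambled replicate 1 was the one control inside the range of the Med13 morpholino libraries, and the other 3 were below them all. The log2 difference was 0.54 ± 0.20 (SE; limma adjusted p = 0.0794), with a 95% interval from 0.11 to 0.98, and did not pass the test. Without scrambled replicate 1 it was 0.71 and did pass (limma adjusted p = 0.0314). In every other fit that left out 1 library it was 0.43 to 0.62 and did not pass (limma adjusted p from 0.106 to 0.180). The RNA of this ATPase was spread over 19 rows, 14 of which were tested, and all 14 differences were positive (0.25 to 0.51) with none called.

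Most of the Smarca2 signal came from short rows at the 3′ end of the gene. The 4 longest rows, of 5703 to 5921 bases, which span nearly the whole transcript, held 11.9% to 17.0% of the summed FPKM in the 8 libraries. A protein-coding row of 1962 bases, which shares positions 4233 to 5921 with the row of 5921 bases, had 144 to 376 fragments per library, nearly as many as the 184 to 434 of the full-length row. A noncoding row of 1584 bases over positions 2778 to 4343 had 14.0 to 44.5 fragments. A row of 645 bases over positions 444 to 966 had 0 to 3 fragments in a library. Counted fragments thus lay mainly over the last part of the transcript in all 8 libraries. The share of the 4 longest rows was 14.0 ± 2.20% in the scrambled and 13.5 ± 0.61% in the Med13 morpholino group, with overlap (SD, n = 4 each). Whether a short 3′ transcript or uneven coverage along the full-length one gave this was not tested.

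Because the paralogous ATPases replace each other in the complex, their ratio was taken within each library, on the log2 scale of summed FPKM + 1. It was 1.44, 1.17, 0.67 and 0.81 in scrambled replicates 1 to 4. It was 2.63, 1.84, 1.65 and 1.74 in Med13 morpholino replicates 1 to 4. Every Med13 morpholino library had more Smarca2 relative to Smarca4 than any scrambled library. The groups differed by 0.94 (two-sided exact permutation test, p = 0.0286, the smallest that 4 against 4 libraries allow; 0.0429 adjusted over 6 ratios). The adjusted values of all 6 ratios also depend on the set chosen, which includes ratios of Smarca5 and Chd4, both called genes. Those ratios also had an exact permutation p of 0.0286, which lowered the adjusted values of Smarca2 to Smarca4 and Arid1b to Arid1a. Adjusted without them, these values would not be below 0.05. This shift in the Smarca2 to Smarca4 ratio joins the differences of the single genes and is no separate evidence of either. It was 0.99 (exact permutation p = 0.0286) without scrambled replicate 2, 0.72 (exact permutation p = 0.0571) without Med13 morpholino replicate 1, and 0.58 (exact permutation p = 0.0857) with only the longest protein-coding row of each gene.

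The ARID subunit genes gave the one called member. Arid1b (ENSMUSG00000069729, GRCm38 chromosome 17, 4994332 to 5347656, plus strand) was, of the genes for the alternative BAF-defining subunits, the one with less RNA. It had summed FPKM of 2.38, 1.77, 1.53 and 1.92 in scrambled replicates 1 to 4. Its levels after the Med13 morpholino were 4.43, 2.99, 2.86 and 4.34 in replicates 1 to 4. The groups did not overlap, and replicate 1 was highest in both. The mean rose from 1.90 ± 0.36 to 3.65 ± 0.84 FPKM (SD, n = 4 each), 1.92-fold, and the log2 difference of FPKM + 1 was 0.67 ± 0.17 (SE; limma adjusted p = 0.0181). Of all genes tested, 21.6% had groups that did not overlap in either direction, and among the tested members Arid1b alone did. Without scrambled replicate 2 it stayed called (0.65; limma adjusted p = 0.0272). The call was lost without scrambled replicate 3 (0.61; limma adjusted p = 0.0585), without Med13 morpholino replicate 1 (0.59; 0.0541), and with no filter on low values (0.0581).

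At this level Arid1b rests on few fragments, though more than a short RNA of the same FPKM would, since its RNA is long. Its longest row, of 11325 bases, had 196 to 530 fragments per library. The 3 protein-coding rows carried 23.4% to 28.7% of the summed FPKM each, and each had a higher mean in the Med13 morpholino group. In the row of 9888 bases the mean went from 0.59 ± 0.12 to 1.01 ± 0.20 FPKM without overlap, and in the row of 7150 bases from 0.44 ± 0.11 to 0.86 ± 0.25 without overlap. In the longest row, 0.55 ± 0.15 against 0.91 ± 0.24, the groups overlapped (SD, n = 4 each). No Arid1b row reached a mean FPKM of 1, so none was tested singly.

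Arid1a (ENSMUSG00000007880, GRCm38 chromosome 4, 133679008 to 133756769, minus strand), the BAF-defining subunit gene with more RNA, had 34.7, 30.2, 40.0 and 45.7 summed FPKM in scrambled replicates 1 to 4. The Med13 morpholino replicates 1 to 4 had 34.9, 35.0, 32.7 and 44.5, well inside the scrambled range. The log2 difference was -0.03 (limma adjusted p = 0.934; 95% interval -0.40 to 0.35), and its sign turned with median-ratio or quantile scaling. Within libraries, the log2 ratio of Arid1b to Arid1a was -4.02 to -3.40 in the scrambled and -3.17 to -2.73 in the Med13 morpholino group, without overlap. The difference was 0.70 (exact permutation p = 0.0286; 0.0429 adjusted over 6 ratios, a value that depends on the set as stated above). By the longest protein-coding rows it was 0.29 (exact permutation p = 0.2), and leaving out any 1 Med13 morpholino library gave 0.60 to 0.75 (exact permutation p = 0.0571 each).

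The levels of the PBAF subunit genes overlapped between the groups. Arid2 (GRCm38 chromosome 15, 96287518 to 96404992, plus strand), the DNA-binding subunit that takes the place of ARID1 in PBAF, had 14.2, 10.6, 11.4 and 13.1 summed FPKM in scrambled replicates 1 to 4 and 16.4, 14.0, 13.7 and 13.5 in Med13 morpholino replicates 1 to 4. Only scrambled replicate 1 lay within the range of the Med13 morpholino libraries, and the difference of 0.22 ± 0.15 on the log2 scale did not pass (SE; limma adjusted p = 0.343). Pbrm1 (GRCm38 chromosome 14, 31019138 to 31121592, plus strand), which reads acetylated histones with several bromodomains, had 10.9, 10.5, 11.6 and 12.9 in scrambled replicates 1 to 4 and 10.8, 10.7, 11.5 and 10.4 in Med13 morpholino replicates 1 to 4. It was among the steadiest members, with a log2 difference of -0.07 (limma adjusted p = 0.745) and a 95% interval from -0.38 to 0.23. The log2 ratio of the PBAF pair, Arid2 plus Pbrm1, to the BAF pair, Arid1a plus Arid1b, was -0.70 ± 0.16 in the scrambled and -0.65 ± 0.24 in the Med13 morpholino group (SD, n = 4 each; exact permutation p = 0.8).

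**Figure D2:**
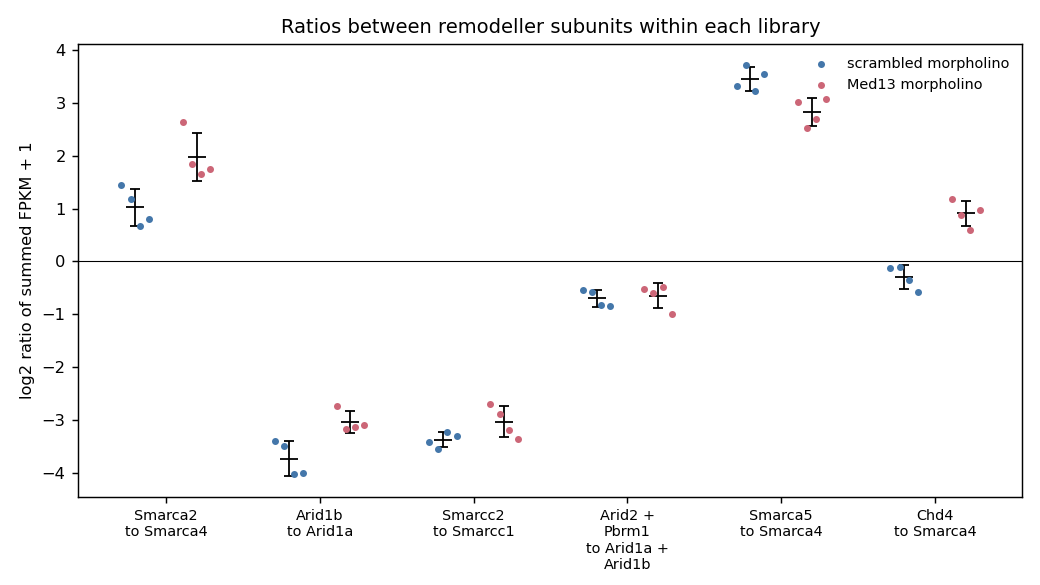
Log2 ratio of summed FPKM + 1 between pairs of remodeller genes, with each point 1 library (blue scrambled, red Med13 morpholino) and bars giving mean ± SD. Smarca2 to Smarca4 and Arid1b to Arid1a lie higher in all 4 Med13 morpholino libraries, while Smarcc2 to Smarcc1 and the PBAF to BAF ratio overlap.

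Among the core and scaffold genes, Smarcb1 (GRCm38 chromosome 10, 75896769 to 75921617, minus strand), which encodes the subunit that grips the nucleosome's acidic patch, had 10.3, 9.80, 8.75 and 8.50 summed FPKM in scrambled replicates 1 to 4. In Med13 morpholino replicates 1 to 4 it had 7.40, 8.70, 9.74 and 11.6. The Med13 morpholino libraries spread to both sides of the scrambled ones. The log2 difference was -0.01 (limma adjusted p = 0.977; 95% interval -0.36 to 0.34) and changed sign with median-ratio and quantile scaling.

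Smarcc1 (ENSMUSG00000032481, GRCm38 chromosome 9, 110117708 to 110240178, plus strand), the scaffold subunit gene that prevails in embryonic stem cells, had 31.6, 26.7, 36.1 and 37.8 summed FPKM in scrambled replicates 1 to 4. In Med13 morpholino replicates 1 to 4 it had 18.6, 22.9, 27.3 and 33.9. The groups overlapped, and the log2 difference of -0.37 ± 0.20 did not pass (SE; limma adjusted p = 0.212). Its full-length rows did pass. The protein-coding row of 5717 bases had 7.74, 7.23, 9.24 and 10.1 FPKM in scrambled replicates 1 to 4 and 3.88, 3.88, 5.34 and 7.01 in Med13 morpholino replicates 1 to 4. The row of 5773 bases had 5.90, 5.24, 6.91 and 6.67 against 3.11, 3.52, 4.49 and 4.43 in the same order. In both, every Med13 morpholino library was below every scrambled one.

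The log2 difference was -0.69 ± 0.19 (SE; limma adjusted p = 0.0273, over all transcript rows) for the row of 5717 bases. It was -0.56 ± 0.16 (limma adjusted p = 0.0293) for the row of 5773 bases. These were the only 2 rows called among the 42 of 75 member rows with a mean FPKM of at least 1, against 15.7% of all rows tested, and the pair shares nearly all its sequence, so they are not separate results. Each call was lost in 5 of the 8 fits that leave out 1 library. For the row of 5717 bases these were the fits without scrambled replicates 3 and 4 and Med13 morpholino replicates 1, 2 and 3 (limma adjusted p up to 0.0993). For the row of 5773 bases these were the fits without scrambled replicates 1, 3 and 4 and Med13 morpholino replicates 1 and 2 (limma adjusted p up to 0.0974).

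None of the other Smarcc1 rows passed the test, and 4 of the 6 tested had negative differences too. A retained-intron row of 3078 bases was at 4.58 ± 0.45 and 3.51 ± 0.84 FPKM (SD, n = 4 each; log2 difference -0.32, limma adjusted p = 0.199), and the rows of 1280 and 1949 bases had differences of -0.26 and -0.24. The summed FPKM of the other 7 rows was 14.2 to 21.05 in the scrambled and 11.6 to 22.5 in the Med13 morpholino libraries. The full-length pair made up 43.1% to 46.8% of the gene's summed FPKM in the scrambled and 32.3% to 37.7% in the Med13 morpholino libraries, without overlap. A protein-coding row of 3538 bases, which shares positions 1 to 3300 with the longest row and then ends differently, was at 4.60 ± 0.89 and 4.22 ± 1.12 FPKM (log2 difference -0.11, limma adjusted p = 0.714). Short rows just past that point had higher means after the Med13 morpholino without passing the test, such as a retained-intron row of 998 bases, at 0.84 ± 0.45 and 1.52 ± 0.99 FPKM (limma adjusted p = 0.347). The called rows are thus those that alone run on to the annotated 3′ end, position 5773. The share of the full-length rows was chosen for description after its values were seen and was given no test.

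**Figure D3:**
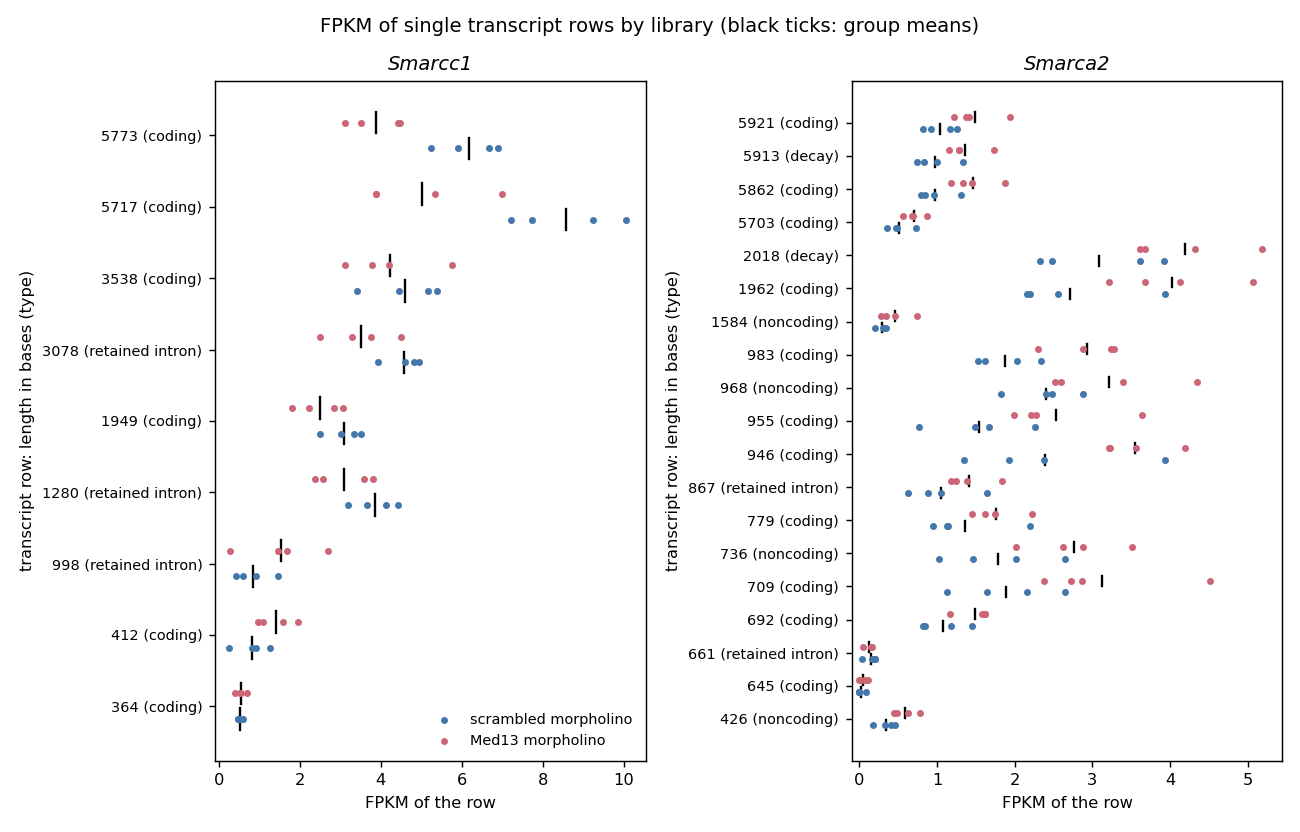
FPKM of each transcript row of Smarcc1 and Smarca2, by row length and type, with each point 1 library (blue scrambled, red Med13 morpholino) and black ticks the group means. For Smarcc1 the groups part in the rows of 5717 and 5773 bases, and for Smarca2 the rows of 1962 and 2018 bases lie above the long rows in both groups.

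Smarcc2 (GRCm38 chromosome 10, 128459248 to 128490482, plus strand), the other scaffold paralog, had 2.07, 1.36, 2.99 and 2.93 summed FPKM in scrambled replicates 1 to 4. The Med13 morpholino libraries, in the same order, had 2.00, 2.24, 2.12 and 2.41, inside the wider scrambled range. The log2 difference was -0.03 (limma adjusted p = 0.917; 95% interval -0.42 to 0.35), of the other sign with median-ratio scaling. The log2 ratio of Smarcc2 to Smarcc1 was -3.55 to -3.22 in the scrambled and -3.35 to -2.70 in the Med13 morpholino libraries, a difference of 0.34 that did not pass (exact permutation p = 0.114; 0.137 adjusted over 6 ratios). With only the longest protein-coding rows the difference was 0.55 (exact permutation p = 0.0286), and it was 0.45 (exact permutation p = 0.0286) without Med13 morpholino replicate 4.

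Smarcd1 (ENSMUSG00000023018, GRCm38 chromosome 15, 99702129 to 99713991, plus strand) encodes an adaptor subunit that contacts transcription factors, and it was the member too low to be tested. It had 0.58, 0.35, 0.91 and 0.65 FPKM in scrambled replicates 1 to 4, in its single row of 3307 bases. In Med13 morpholino replicates 1 to 4 it had 1.17, 1.31, 1.06 and 1.61. The groups did not overlap, and the mean was 0.62 ± 0.23 against 1.29 ± 0.24 FPKM (SD, n = 4 each), from 49.8 to 244 fragments per library. Fitted with no filter on low values, its log2 difference was 0.50 ± 0.14 (SE; limma adjusted p = 0.0965, where 2.89% of 34976 genes were called). Antisense genes Gm17349 and Gm34939 cover 7.13% and 5.56% of its exonic bases, and whether the counting used strand is not stated, so some of these reads may be theirs.

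The rest of the BAF, PBAF and related noncanonical BAF subunits, 23 listed names of which 21 were in the table and 16 were tested, held 2 called higher and 3 called lower, beside 9.29% and 7.81% of all genes tested. The median log2 difference of these 16 was -0.08, against -0.06 over all genes tested. Bcl7c, a small accessory subunit gene, had 5.48, 2.72, 4.51 and 3.52 summed FPKM in scrambled replicates 1 to 4 and 12.0, 9.86, 7.19 and 14.1 in Med13 morpholino replicates 1 to 4. The groups did not overlap, and the log2 difference was 1.21 ± 0.22 (SE; limma adjusted p = 0.00398). Ss18l1, known as CREST from its role as a calcium-responsive activator in neurons, had 2.62, 1.99, 2.00 and 2.09 in scrambled and 7.20, 4.04, 3.14 and 4.51 in Med13 morpholino replicates 1 to 4, again without overlap. Its log2 difference was 0.81 ± 0.20 (SE; limma adjusted p = 0.0170).

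The 3 called lower each had overlapping groups. Smarce1, a DNA-bending HMG-box subunit gene, had 25.6 ± 4.78 FPKM in the scrambled and 15.4 ± 5.18 in the Med13 morpholino group (SD, n = 4 each), a log2 difference of -0.74 (limma adjusted p = 0.0396). Actl6a, an actin-related subunit gene, went from 11.0 ± 3.35 to 6.41 ± 0.81 FPKM (-0.66, limma adjusted p = 0.0417), with 11.6% of its exonic bases shared with antisense Mrpl47. Bcl7a, a paralog of Bcl7c, went from 2.06 ± 0.66 to 0.99 ± 0.48 FPKM (-0.62, limma adjusted p = 0.0469). All 3 calls were lost without any one of scrambled replicates 1, 3 and 4 and Med13 morpholino replicates 1, 2 and 3, and that of Actl6a also without replicate 4 of that group, with limma's adjusted p reaching 0.125. Smarcd2, a paralog of Smarcd1, had the next smallest adjusted p and went from 9.43 ± 1.57 to 14.5 ± 3.84 FPKM without overlap (0.56, limma adjusted p = 0.0665). It passed with median-ratio scaling (limma adjusted p = 0.0213), quantile scaling (0.0255) and array weights (0.0222), and in no other alternative run.

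**Figure D4:**
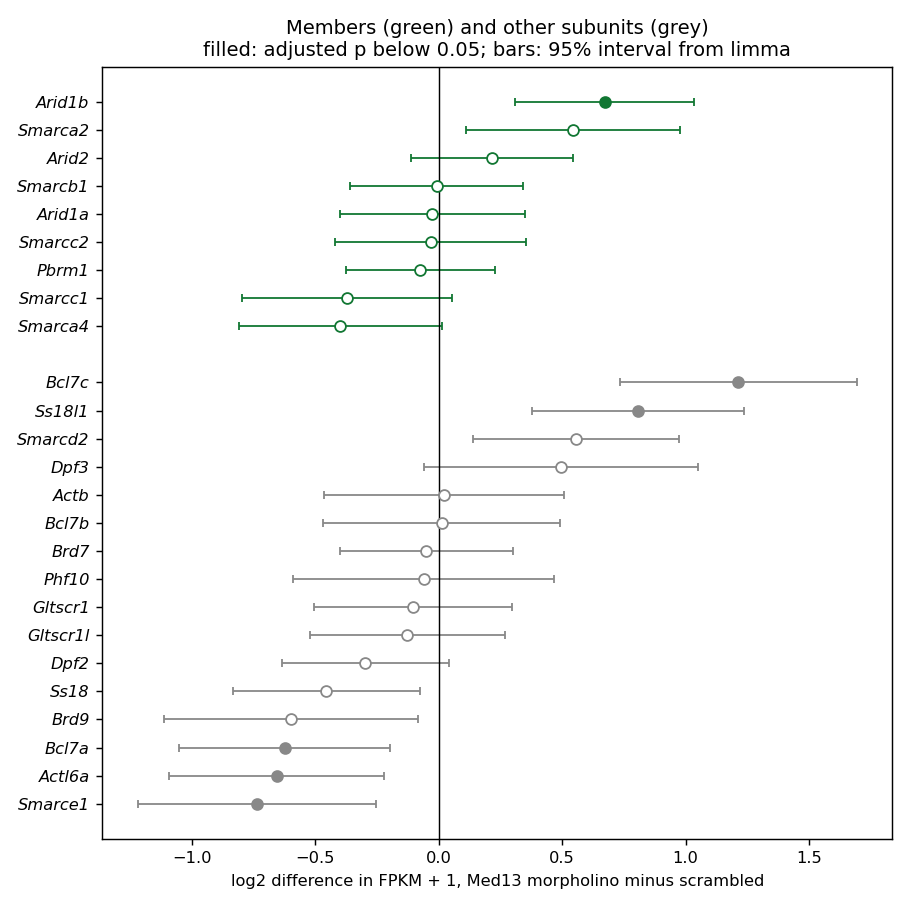
Log2 difference of summed FPKM + 1, Med13 morpholino minus scrambled, for the 9 tested members (green) and the 16 other tested subunits (grey), with 95% limma intervals and filled points at an adjusted p below 0.05. Arid1b, Bcl7c and Ss18l1 lie to the right of 0 with filled points, and Smarce1, Actl6a and Bcl7a to the left.

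Smarca4 was also set against the ATPases of other remodeller families, of which Smarca5 was itself called lower and Chd4 higher. Smarca5, the ISWI ATPase gene, was lower relative to Smarca4 in every Med13 morpholino library (log2 ratio 2.53 to 3.07) than in any scrambled one (3.22 to 3.72), a difference of -0.63 (exact permutation p = 0.0286; 0.0429 adjusted over 6 ratios). Chd4, the NuRD ATPase gene, was higher relative to Smarca4, at 0.60 to 1.18 against -0.58 to -0.10, a difference of 1.20 (exact permutation p = 0.0286; 0.0429 adjusted over 6 ratios). The first ratio had an exact permutation p of 0.0571 without scrambled replicate 2 (-0.54) and without Med13 morpholino replicate 2 (-0.53). The 3 ratios with Smarca4 share its values and are not independent.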

How the data were processed

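The authors deposited 1 table of FPKM values per Ensembl transcript for 8 libraries, made per the labels' protocols from amplified RNA (Ovation RNA-Seq System V2) and TruSeq libraries of 400 ng cDNA. Reads were handled with BWA and build mm10, per the submitters' processing notes. For the BWA version, counting tool, annotation release and use of strand, nothing is stated (not given in the sources used here). In 3758 rows, those with a hyphen in the symbol, the values stand 1 column to the right. They hold 0 members and were left out, which gave 93738 rows and 34976 symbols. In 1 column the text in those rows made the unit read as other, and its remaining values are FPKM as deposited. All 75 member rows matched GENCODE M21 (GRCm38), which gave lengths, types and coordinates.

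FPKM times length came out in steps of 0.5 fragments (tolerance 0.005) for 94.3% to 94.5% of values of up to 20 fragments, which gave back the library totals. Of the 75 member rows, 58 came out whole in all 8 libraries. The rows of Smarcd1 and Smarcc2 and the Smarca2 rows of 5921 and 1962 bases did not, so their fragment numbers, which rest on the M21 lengths, are approximate. How a fragment that fits several rows was counted is not stated. A sum may thus repeat shared fragments, or a single row may hold only part of them. Amplified reads carry no molecular identifiers.

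Rows were summed by symbol, and the 11755 genes whose mean FPKM reached 1 entered a two-sided test on the scale log2(FPKM + 1). It was limma's moderated test (version 3.58.1, R 4.3.3) with a mean-variance trend and without covariates. An adjusted p (Benjamini-Hochberg, all genes) below 0.05 made a call. This scale understates the change of low genes. Transcript rows were tested alike. The 6 ratios were compared by exact permutation over 70 assignments. Groups follow the treatment label, and replicate numbers follow sample order, with no pairing stated in the labels. Replicates are separate collections, and the p-values reflect how much collections differ. The code was tested on simulated data.

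Members and gene lists were chosen with earlier results of these data known. All members are described. Of the other subunits, those called and the 6 of smallest adjusted p are named, and the 5 genes most like Arid1b are named in the closing section. Promoter sequences are from RefSeq (GRCm38.p6), where 9 of the 10 members matched and Arid2 did not. Alternatives tried were the pseudocount, filters, 3 scalings, array weights, no trend, realigned rows, choices of transcript and each library left out. The longest-row alternative and the joint removal of scrambled replicate 2 and Med13 morpholino replicate 1 were chosen after seeing the data.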

Additional observations from a re-analysis of the deposited data

Results flagged for a closer look

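In 44 groups of 4 libraries checked, 2 held a library far from the others, where chance gives about 1 in 20. Ss18l1 was at 2.62 summed FPKM in scrambled replicate 1, against 1.99 to 2.09 in the other scrambled libraries. Bcl7a was at 1.70 summed FPKM in Med13 morpholino replicate 4, against 0.67 to 0.85 in the other Med13 morpholino libraries. None of the 10 members had such a library.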

How the results depend on the processing

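Of all genes, 1092 were called higher and 918 lower. The calls came to 623 and 389 with no filter, 576 and 561 with the filter at 5 FPKM, and 1712 and 2624 with array weights. They were 608 to 1086 higher and 348 to 1353 lower with 1 library left out, and 597 higher with the longest protein-coding row only. Among the members, 0 were called higher with the filter at 5 FPKM or with the main or longest protein-coding row only, where Arid1b is not tested, and 0 with no filter or without scrambled replicate 2 and Med13 morpholino replicate 1 together, and 2 with array weights. Array weights called 2 lower (Smarca4 and Smarcc1), and the main and longest rows called 1 (Smarcc1). With 1 library left out, 0 to 2 members were higher and 0 to 1 lower. Of the other subunits, 1 was higher with no filter or the filter at 5 FPKM. The number lower was 0 with no filter or the main row, 1 with the longest row, 6 with array weights and 0 to 5 with 1 library left out. Of the member rows, 1 was higher with median-ratio scaling, quantile scaling or protein-coding rows only and 2 with array weights. The number lower was 0 with no filter and 11 with array weights, and with 1 library left out 0 to 3 were higher and 0 to 3 lower.

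Among the ratios, Smarca2 to Smarca4 was 0.68 with the main row, 0.58 with the longest row and 0.72 to 1.08 with 1 library left out. Arid1b to Arid1a was 0.32, 0.29 and 0.60 to 0.81. Smarcc2 to Smarcc1 was 0.65, 0.55 and 0.23 to 0.45. Smarca5 to Smarca4 was -0.49 with protein-coding rows only and -0.71 to -0.53 with 1 library left out. The PBAF to BAF ratio was -0.0073 to 0.17 with 1 library left out.

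Differences near 0 changed sign. With median-ratio scaling Arid1a was 0.020, Smarcb1 0.032 and Smarcc2 0.0064. With quantile scaling Arid1a was 0.039 and Smarcb1 0.0088. Arid1a was 0.015 by the main and longest rows, and Smarcb1 was 0.11 by both. Protein-coding rows only gave Pbrm1 0.0084 and Smarcb1 0.14. Smarcb1 was also 0.014 with array weights and 0.11 without both libraries. With 1 library left out, Arid1a was -0.12 to 0.071, Smarcb1 -0.11 to 0.087 and Smarcc2 -0.19 to 0.063. Smarca4, Smarca2, Arid1b, Arid2 and Smarcc1 kept their direction in every alternative run. The causes were not tested. No paired analysis was made because the labels give no shared replicate numbers. Library numbers in the titles alternate between the groups, and whether neighbouring numbers share a collection day is not stated. Depth was low for Smarcd1 (49.8 to 244 fragments per library) and for the longest row of Smarcc2 (61.8 to 218).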

Other observations

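The 5 genes whose changes from library to library were most like those of Arid1b, among 4581 genes at a mean of 5 FPKM or more that are no members and have no clone or predicted name, were Gatad2a, Srgn, Rfx7, Adh5 and Nup50. Likeness was the mean absolute difference, over the 8 libraries, between the deviations of a gene and of Arid1b from their own means in log2(FPKM + 1). It was 0.0508 for Gatad2a, a NuRD subunit gene, and 0.0826 for Srgn, which encodes a secretory granule proteoglycan. It was 0.0849 for Rfx7, a transcription factor gene, 0.0987 for Adh5 and 0.101 for the nucleoporin gene Nup50, against a median of 0.412 over all genes compared. Gatad2a went from a mean of 13.0 to 21.4 summed FPKM. The choice by likeness fixes that these genes also differ between the groups as Arid1b does.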
